A study of Caenorhabditis elegans with 2 samples.

Results

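Chromatin immunoprecipitation sequencing had been used to map an EGFP-tagged form of FKH-10, a forkhead transcription factor, on the genome of the nematode Caenorhabditis elegans. The 256 regions described here are those that lay inside introns of protein-coding genes on the 5 autosomes, out of 1723 autosomal regions and 2253 in all that passed the irreproducible discovery rate (IDR) threshold over both replicates. A region was counted as intronic by its summit, the base of highest signal. The summit had to lie outside every coding promoter window (1000 bp upstream to 200 bp downstream of a transcript start), more than 200 bp from any noncoding gene other than piRNA genes and pseudogenes, outside all exons and inside a protein-coding gene of Ensembl release 115. The single group of the study consisted of whole mixed sex L4 larvae of strain OP337, with 2 biological replicates. These animals carried the unc119(ed3) mutation and the integrated transgene wgIs377, which holds fkh-10::TY1 EGFP FLAG together with unc119. The labels name no second genotype or condition, so the values below are counts and levels with their intervals, and no comparison between conditions was possible.

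Forkhead proteins bind DNA through a winged-helix domain and recognise short words built around a TAAA core. Most introns of C. elegans are short, while the long ones are known to carry enhancers and alternative promoters, often in genes of the nervous system and in regulators of development. The IDR procedure ranks regions in each replicate and keeps those whose ranks are reproducible between them.

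The sequence around the summit is printed for 8 regions, 100 bases on each side, on the plus strand of RefSeq's WBcel235 genome (ce11), 5′ to 3′. Capitals mark a GA-repeat word (GAGAGAG or its complement) or a word of the forkhead consensus (the strict form GTAAACA, the related form ATAAACA, the further form GTAAATA, the last form ATAAATA, and their complements). The first 3 are the strongest intronic regions among those on chromosomes II to V, in Y111B2A.12 (chrIII:12612586-12612786), zfp-1 (chrIII:8795757-8795957) and pqn-41 (chrIII:1921356-1921556), and show how GC-rich and how rich in GA the strongest sites can be.
Y111B2A.12: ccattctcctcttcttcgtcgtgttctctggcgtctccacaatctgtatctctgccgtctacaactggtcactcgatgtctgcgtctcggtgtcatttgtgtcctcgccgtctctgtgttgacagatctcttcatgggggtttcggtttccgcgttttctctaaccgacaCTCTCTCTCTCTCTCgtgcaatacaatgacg
zfp-1: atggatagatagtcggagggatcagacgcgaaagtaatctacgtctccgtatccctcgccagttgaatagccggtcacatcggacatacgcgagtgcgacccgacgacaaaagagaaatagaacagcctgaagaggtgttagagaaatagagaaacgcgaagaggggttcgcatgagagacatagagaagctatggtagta
pqn-41: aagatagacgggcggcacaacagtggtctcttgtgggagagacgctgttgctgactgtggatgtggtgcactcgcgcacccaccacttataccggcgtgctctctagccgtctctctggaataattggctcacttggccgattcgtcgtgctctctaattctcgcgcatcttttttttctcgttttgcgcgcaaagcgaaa
The next 2 are the strongest others on these chromosomes with the GA-repeat word, in soc-2 (chrIV:5137888-5138088) and F28E10.1 (chrIV:4586078-4586278). They show the word at the edge of the window, away from the summit.
soc-2: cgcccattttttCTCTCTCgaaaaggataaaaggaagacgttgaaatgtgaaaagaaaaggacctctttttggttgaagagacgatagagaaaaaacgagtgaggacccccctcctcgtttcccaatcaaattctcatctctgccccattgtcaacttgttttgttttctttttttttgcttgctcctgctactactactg
F28E10.1: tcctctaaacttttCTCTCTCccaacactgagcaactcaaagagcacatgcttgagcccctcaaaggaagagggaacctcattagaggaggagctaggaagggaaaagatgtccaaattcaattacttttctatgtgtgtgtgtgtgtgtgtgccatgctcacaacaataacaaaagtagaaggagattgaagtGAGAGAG
The following 2 are the strongest with the strict forkhead word GTAAACA, in Y41E3.7 (chrIV:15017058-15017258) and pac-1 (chrIII:8511775-8511975). The last, in pkc-1 (chrV:12025761-12025961), is the strongest on these chromosomes with none of the 8 motifs searched, apart from the zfp-1 and pqn-41 windows above, and stands for the most common kind of window.
Y41E3.7: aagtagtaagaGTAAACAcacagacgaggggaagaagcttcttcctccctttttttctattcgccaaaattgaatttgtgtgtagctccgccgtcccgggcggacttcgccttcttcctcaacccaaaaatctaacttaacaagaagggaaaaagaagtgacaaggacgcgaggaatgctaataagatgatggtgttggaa
pac-1: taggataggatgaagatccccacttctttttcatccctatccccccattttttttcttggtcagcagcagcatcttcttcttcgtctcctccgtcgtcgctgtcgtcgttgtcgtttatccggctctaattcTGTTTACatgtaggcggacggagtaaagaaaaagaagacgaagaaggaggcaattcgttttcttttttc
pkc-1: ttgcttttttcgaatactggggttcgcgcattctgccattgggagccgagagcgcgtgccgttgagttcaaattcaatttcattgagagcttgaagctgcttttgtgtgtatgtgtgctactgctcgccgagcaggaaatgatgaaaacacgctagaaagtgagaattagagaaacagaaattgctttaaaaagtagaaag

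GC content over these windows was 51.2% in Y111B2A.12, 48.8% in zfp-1, 53.2% in pqn-41, 40.8% in soc-2, 43.3% in F28E10.1, 44.3% in Y41E3.7, 44.8% in pac-1 and 43.3% in pkc-1. The longest stretch of alternating G and A (on either strand) was 15 bases in Y111B2A.12, 8 in soc-2 and F28E10.1, 7 in pqn-41 and 6 in zfp-1. All 8 windows were above the median GC content of intronic sequence cut into tiles, 33.3%. Windows on chromosome I were not printed. The strongest intronic region of all is there, in dhhc-2, with 33.3% GC and a longest GA stretch of 6 bases. The window in mef-2, also on chromosome I, had 45.8% GC and a stretch of 10.

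Introns gave 14.9% of the autosomal IDR regions (95% Wilson interval 13.3 to 16.6). The intronic bases left by the rule, outside promoter windows, noncoding genes and exons, were 26.4% of the autosomal sequence, 21.8 Mb. The regions per Mb of these bases were 11.7 (exact Poisson interval 10.3 to 13.3). The density was 39.8 in coding promoter windows, 19.6 between genes, 83.4 in and beside noncoding genes and 2.12 in exons. Of the pooled relaxed regions on the autosomes, which include background and were the input of the IDR step, 11.1% had an IDR summit within 100 bp. Among the intronic ones the share was 6.51% (256 of 3930, interval 5.78 to 7.33), against 16.2% in promoters and 1.77% in exons. The rule itself uses the IDR list, so these shares describe the list and nothing was tested on them. The other 3674 intronic relaxed regions, called relaxed regions below, and the intronic bases that the rule could have selected serve as the background for what follows. Intronic bases and intronic sequence below mean these bases alone. All intervals here cover counting error only.

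The limits of the rule cut through a continuum. The regions just inside lay in osgn-1, 1004 bp upstream of a start, in dhhc-3, at 1009 bp, in a gene left unnamed here, 223 bp downstream of a start (signal 41.7), in nhr-88, at 246 bp (71.7), and in K01F9.2, 208 bp from a noncoding gene (65.6). Just outside, and counted as promoter or noncoding regions, were summits 1000 bp upstream of a start in pqn-41 and epg-9, 168 bp downstream of one in unc-73 and B0361.4, and 200 bp from a noncoding gene in kin-4. The signals of those left out were 63.1 at pqn-41, 67.8 at epg-9, 74.5 at unc-73, 73.0 at B0361.4 and 52.3 at kin-4.

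Some facts of the whole series bear on these regions. The IDR list carries the signal of the pooled replicates, in the authors' own scale, and each replicate has a relaxed list of its own (30000 and 28886 regions). The lists give no read depth, so the precision of a single signal cannot be stated. Around the tagged gene itself, fkh-10, which spans 10163475 to 10165132 on the minus strand of chromosome I, every list was empty out to 20 kb, so no region there checks the label. A dense run of 70 pooled regions lay over 40313 bp of chromosome I (14719414 to 14759726), and 10 of the 256 intronic regions fell into it. Where they were recomputed, results that these 10 move are given with and without them, an alternative chosen after the data were seen.

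The IDR regions lay in long introns. The median length of an intron holding one was 4226 bp (quartiles 2087 and 8189 bp, range 47 to 21230 bp), counted once per region. It was 1162.5 bp for the relaxed regions, 979 bp for the average intronic base and 70 bp for the annotated autosomal introns. In all, 195 of 256 regions (76.2%) were in introns of 2000 bp or more, which held 35.96% of the relaxed regions and 29.3% of the intronic bases.

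The number of regions per Mb of intron was higher in longer introns. It was 2.14 (1.14 to 3.66) in introns under 500 bp, 2.59 (1.38 to 4.43) from 500 to 999 bp, 8.05 (5.61 to 11.2) from 1000 to 1999 bp, 24.9 (19.9 to 30.7) from 2000 to 4999 bp, 34.4 (26.6 to 43.8) from 5000 to 9999 bp and 42.5 (30.7 to 57.2) from 10000 bp up. The intervals of neighbouring classes were clear of each other at the steps at 1000 and 2000 bp and overlapped at the others. Relaxed regions went from 124 to 266 per Mb over the same classes, a much smaller relative range. Of the 26 regions in introns under 1000 bp, 9 were in the dense run on chromosome I, so that outside it 17 of 246 (6.91%) were in introns that short, and the median length there was 4303 bp.

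Regions lay farther from the exons than relaxed regions and intronic bases did. The median distance from a summit to the nearest exon of its intron was 1174.5 bp, against 280 bp for relaxed regions and 213 bp for intronic bases. Over 1000 bp from an exon lay 147 regions (57.4%), 22.7% of the relaxed regions and 16.4% of the bases. Long introns alone give long distances, so the density was taken within length classes. In introns of 2000 to 4999 bp it was 10.2 per Mb within 100 bp of an exon (2 regions, 1.23 to 36.8), 9.10 between 100 and 250 bp (1.88 to 26.6), 14.3 at 251 to 500 bp (6.16 to 28.1), 26.3 at 501 to 1000 bp (17.7 to 37.5) and 34.9 beyond 1000 bp (25.3 to 47.0). In introns of 5000 bp or more no region was within 100 bp, and the density was 11.7 between 100 and 250 bp (1 region, 0.297 to 65.3), 13.3 at 251 to 500 bp (2 regions, 1.61 to 48.1), 6.66 at 501 to 1000 bp (2 regions, 0.807 to 24.1) and 44.3 beyond 1000 bp (36.2 to 53.6). In introns of 2000 to 4999 bp no distance class had an interval clear of the last one. In those of 5000 bp or more only the class of 501 to 1000 bp did, with 2 regions. The relaxed regions there were at 267 per Mb from 501 to 1000 bp and at 263 beyond. In the direction of transcription 133 of 256 regions (52.0%) were nearer the 5′ end of the intron, against 49.8% of relaxed regions and 51.5% of bases.

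**Figure D1:**
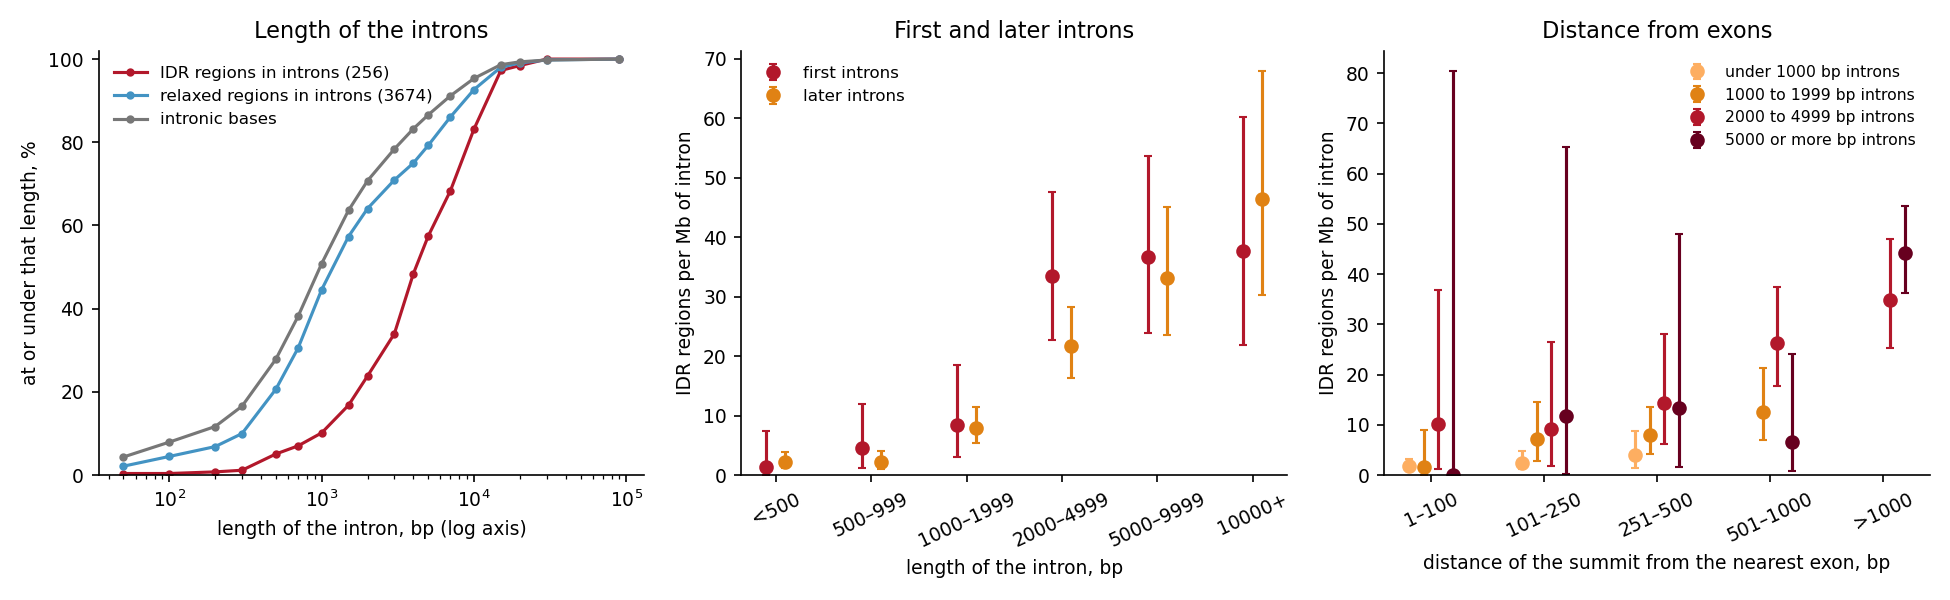
Length of the introns that hold regions (left, cumulative percent against intron length in bp on a log axis), IDR regions per Mb of intron in first and later introns by length class (middle) and by distance of the summit from the nearest exon within length classes (right). Points are densities and bars exact 95% Poisson intervals; the curve of IDR regions stays below those of relaxed regions and intronic bases up to 10000 bp, and the density beyond 1000 bp from an exon is 34.9 and 44.3 per Mb in the longest classes of intron.

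First introns held 85 regions (33.2%, 27.7 to 39.2), against 23.7% of the relaxed regions and 20.2% of the intronic bases. A further 49 were in intron number 2, 32 in number 3, 31 in number 4 and 59 in number 5 or later. Introns were numbered on the longest transcript with an intron at the summit. When the lowest number over all transcripts was used in its place, 52.3% counted as first introns, so the share depends on which isoform is taken. First introns are also longer, with a median of 1755 bp per intronic base against 885 bp for intron number 2.

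Intron length was therefore held fixed by multiplying the density of each length class by the bases that each kind of intron had in it. On this count first introns would have held 76.1 regions, so the 85 found were 1.12 times that number (0.892 to 1.38), and the ratio for relaxed regions was 1.07. Introns numbered 5 or later held 0.675 times their number (0.514 to 0.871, relaxed 0.973). The last intron of a transcript held 6 regions against 26.4 given by length, a ratio of 0.227 (0.0834 to 0.495), with 0.984 for relaxed regions. Those 6 included nlp-11, a neuropeptide precursor gene (intron 2 of 2), sly-1, a protein of membrane fusion in the secretory pathway (12 of 12), and gsp-1, a protein phosphatase catalytic subunit (4 of 4), and 1 of them, in K05C4.5, was in the dense run. On this numbering the ratio for first introns had an interval that includes 1, and that for last introns did not. Neither ratio was recomputed with another choice of transcript. In 187 cases (73.0%, 67.3 to 78.1) the intron was the longest of its transcript, against 47.0% of relaxed regions and 46.4% of bases.

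Many of the host genes have a further start downstream of the region. In 153 of 256 cases (59.8%, 53.7 to 65.6) a later start of the host gene was annotated downstream of the summit, against 31.8% of the relaxed regions, and in 55 (21.5%, 16.9 to 26.9) it was within 2000 bp, against 8.57%. In introns of 2000 bp or more the shares were closer, 71.3% (64.6 to 77.2) against 67.5% (65.0 to 70.0) for any later start and 21.5% (16.3 to 27.8) against 17.5% (15.5 to 19.6) within 2000 bp, with overlapping intervals. In introns under 2000 bp (61 regions) any later start was found for 22.95% (14.2 to 34.9), against 11.7% (10.45 to 13.05) of relaxed regions. A start within 2000 bp was found there for 21.3% (12.9 to 33.1), against 3.57% (2.89 to 4.40). In these shorter introns the intervals were clear of each other on both measures. The median distance from the start of the host transcript was 4338 bp (quartiles 1986 and 8431 bp), against 3375 bp for relaxed regions and 2717 bp for intronic bases. To the nearest coding start of any gene, where the rule sets the minimum, it was 1923 bp, against 1736.5 bp for relaxed regions. That nearest start belonged to the host gene in 238 cases (93.0%, 89.2 to 95.5), and in 81.8% of the relaxed regions.

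The regions were most dense in the middle part of the chromosomes. When each autosome was cut into 3 equal parts, the middle one held 110 regions (43.0%, 37.1 to 49.1), against 26.2% of the relaxed regions and 26.0% of the intronic bases. With intron length held fixed this was 1.82 times the number given by length (1.50 to 2.20, relaxed 1.06). The left part held 54 (ratio 0.544, 0.409 to 0.710) and the right part 92 (0.954, 0.769 to 1.17). By chromosome the density was 16.8 per Mb on II, 15.0 on III, 11.2 on I, 9.96 on IV and 6.96 on V (4.76 to 9.82). Neighbours in that order had overlapping intervals, and those of II (12.8 to 21.5) and III (11.6 to 19.1) did not overlap that of V. X, which the rule leaves out, had 82 intronic regions at 19.1 per Mb (15.2 to 23.7).

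**Figure D2:**
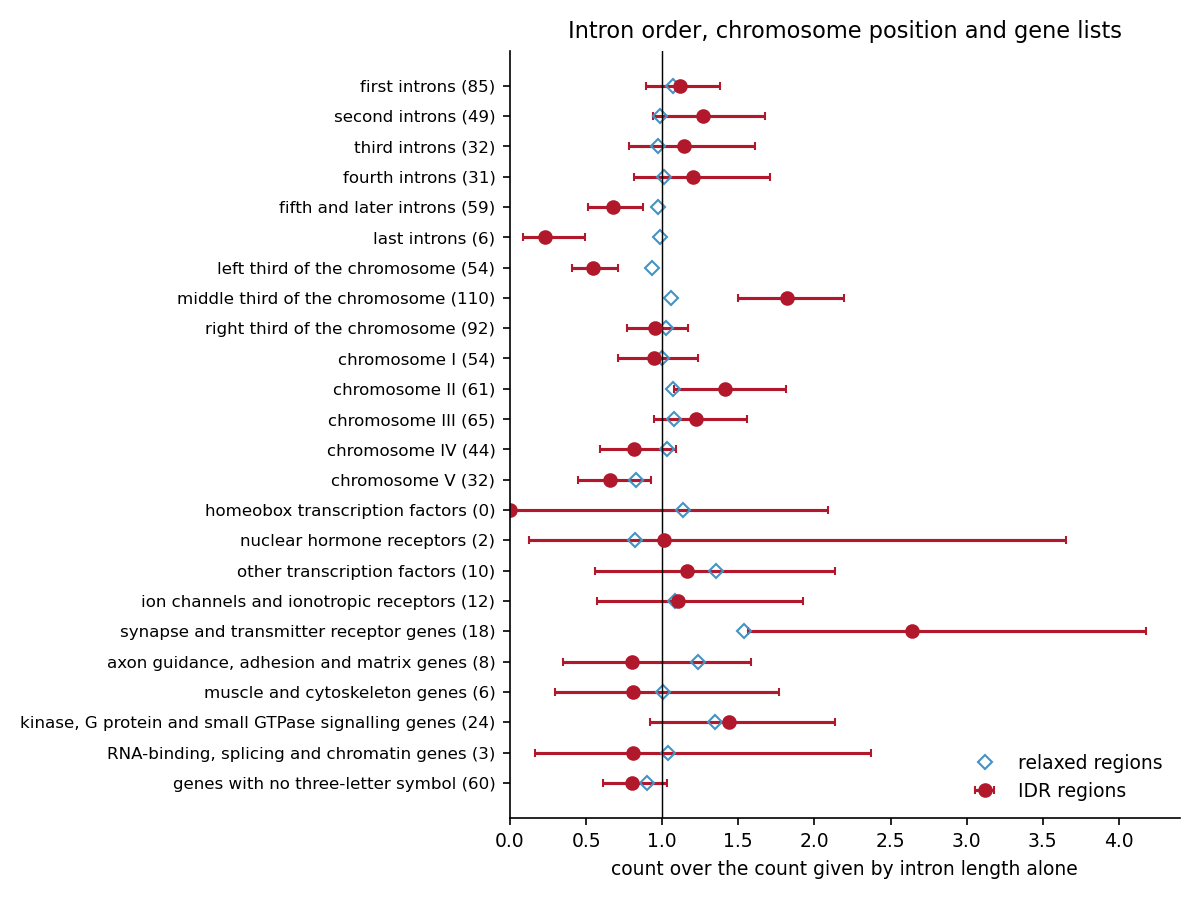
Number of IDR regions (filled points, with exact 95% Poisson intervals) and relaxed regions (open diamonds) divided by the number that the density per intron-length class alone gives, by intron order, part of the chromosome, chromosome and gene list, with the number of IDR regions in parentheses. The ratio was 0.227 for last introns, 1.82 for the middle of the chromosomes and 2.64 for synapse genes; the ribosomal list, with 0 regions and 0.570 given by length, is not drawn.

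The strongest intronic region was in dhhc-2, a gene of the DHHC palmitoyltransferase family, with a signal of 137 (chromosome I, summit 11840814, in the first of 9 introns, 5992 bp long). Its signal was 48.1 in replicate 1 and 70.6 in replicate 2. Next were Y111B2A.12, with 135.5 (intron 4 of 7, 60.1 and 78.8 in the replicates), and mef-2, a MADS-box transcription factor gene, with 131 (intron 1 of 4, 49.2 and 92.5). zfp-1, a chromatin protein of the AF10 type, had 116 (intron 4 of 13, 46.9 and 61.7), and pqn-41, a glutamine-rich protein gene, 114 (intron 14 of 21, 55.3 and 77.5). In each of these 5 replicate 2 was the higher.

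The 25 strongest regions, down to a signal of 90.9, lay in 23 genes. Among them were soc-2, a leucine-rich repeat protein of Ras signalling (111), pde-3, a phosphodiesterase (106), pkc-1, a neuronal protein kinase C (106 and 104), daf-14, a Smad of the dauer TGF-β pathway (104), mnk-1, a MAP kinase-interacting kinase (97.3), and dlk-1, a MAP kinase kinase kinase known from axon regeneration (96.5). Others were unc-73 (100.07), zig-8, an immunoglobulin-domain protein (97.1), hgo-1, an enzyme of tyrosine breakdown (95.2), nlp-11 (94.6), unc-41, a stonin of synaptic vesicle recycling (91.7), pac-1 (91.5), and glb-25, a globin (90.9). F28E10.1, Y41E3.7, ZK265.7, Y62E10A.13 and K05C4.3 have clone names alone. Of the 25, 9 were in a first intron and 21 in an intron of 2000 bp or more, 10 had a host gene with an IDR region in its promoter window as well, and 24 were higher in replicate 2. The introns under 2000 bp were those of F28E10.1 (316 bp), K05C4.3 (460 bp), nlp-11 (833 bp) and dlk-1 (1169 bp).

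The median signal of the intronic regions was close to that of the rest of the list. It was 58.5 (quartiles 48.8 and 76.3, range 41.5 to 137), and 59.1 for the other 1467 autosomal IDR regions (49.0 and 77.3, up to 304). Among the 100 strongest regions of the list there were 4 intronic ones, 1.56% of the 256 (0.609 to 3.95), against 4.64% of the others (3.67 to 5.83), with intervals that overlap at their ends. Across the 256 regions signal and intron length had a Spearman correlation of 0.07, and signal and GC content 0.07, as descriptions over regions that share the same libraries.

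Both replicates listed most of the regions. A summit within 100 bp was found in both relaxed lists for 227 (88.7%, 84.2 to 92.0), in replicate 1 for 237 and in replicate 2 for 246, and no region was missing from both. In the dense run 5 of 10 had a summit in both, against 222 of 246 (90.2%) elsewhere. The share for the other autosomal IDR regions was 89.7%. With summits matched within 50 bp the share for introns was 62.5%, and within 200 bp 97.3%.

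Replicate 2 gave the higher signal at 185 of the 227 regions seen in both (81.5%, 75.9 to 86.0), against 74.9% (72.5 to 77.2) of the other autosomal IDR regions. Median signals were 25.3 and 35.5 in replicates 1 and 2, and the median log2 ratio of replicate 2 over replicate 1 was 0.57, against 0.42 for the others, with a standard deviation over regions of 0.72 in both groups. No test was made of the difference between the groups. More than 2-fold apart were 57 regions, 52 of them higher in replicate 2. The signals of the 2 replicates had a Spearman correlation of 0.34 over the 227 regions and of 0.42 over the 1316 others, so the rank of a single intronic region within the list is not well fixed.

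The largest ratios were in K05C4.3 (log2 2.74, from 11.7 to 78.5) and K05C4.5 (2.62, from 10.2 to 62.6), both in the dense run, and in lin-10, a PDZ adaptor of receptor localisation (2.52, from 7.56 to 43.3), glb-25 (2.42, from 7.29 to 38.9) and phac-1 (2.16, from 12.3 to 55.0). At the other end were ast-1, an ETS transcription factor gene (log2 -1.25, 53.9 in replicate 1 and 22.6 in replicate 2), znf-782, a zinc-finger gene (-1.21, 20.7 and 8.92), gei-4 (-1.15, 39.0 and 17.5), nsf-1, the ATPase that takes SNARE complexes apart (-1.11, 30.2 and 14.0), and abts-3, a bicarbonate transporter (-1.07, 37.7 and 17.9). abts-3 and glb-25 each held another region, with log2 ratios of 0.76 and 1.02.

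**Figure D3:**
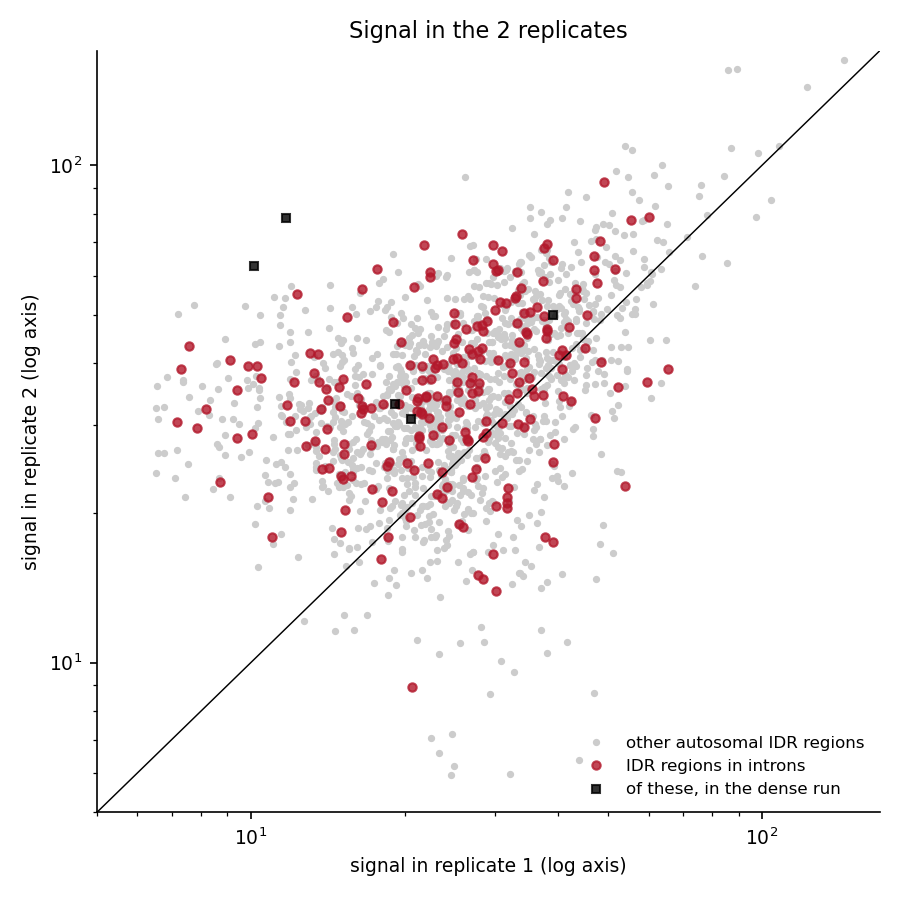
Signal of each region in replicate 1 and replicate 2 (log axes, the authors' scale), for the intronic IDR regions seen in both replicates, with those in the dense run as squares, and the other autosomal IDR regions in grey. Most intronic points, 185 of 227, lie above the line of equal signal, and K05C4.3 and K05C4.5 are the squares farthest above it.

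The 256 regions lay in 199 host genes (4 regions lay in 2 host genes, both counted). Each intronic base that the rule could have selected was assigned to 1 gene, which gave 14327 autosomal genes with such bases. Among these were 196 of the hosts, and the other 3, each the second host of a region, had none assigned. Host genes were long, with a median of 11790 bp against 2272 bp for those 14327 genes. A single region was found in 157 of them, 2 regions in 32 and 3 or more in 10. The regions occupied 216 introns, and 32 of those introns held 2 or more. The summits of neighbouring regions were within 2000 bp of each other in 32 of 251 pairs. The closest pair, in the chloride channel gene clh-2, was 199 bp apart. Regions outside the dense run were 390 bp wide, so summits nearer than that belong to regions that overlap and need not be separate sites. Such pairs also lay in pqn-41, ncl-1 and daf-5.

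The 10 genes with 3 or more regions fell into different arrangements. In pqn-41 all 4 lay within 3865 bp of intron 14, which is 10372 bp long, with signals of 114, 98.0, 53.0 and 77.3 from the 5′ end. In ncl-1, a B-box protein that limits nucleolar size, 4 lay within 2814 bp of the first intron (67.6, 73.9, 44.6 and 48.1), and in pkc-1, 3 lay in intron 2 of 13 (51.7, 104 and 106 from the 5′ end). The gene spv-1 had 3 in intron 9 of 18. In these 4 genes a single intron held every region.

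In others the regions were spread over several introns. mpz-1, a protein with many PDZ domains, had 4 in introns 6, 11, 23 and 36 of 42, over 24585 bp, with signals of 86.7, 72.1, 77.9 and 63.0. daf-5, a Sno/Ski protein of the dauer pathway, had 3 in its first intron of 14446 bp and 1 in intron 2, and DH11.5 had 3 in its first intron and 1 in intron 12. sue-1 had 5 over 7405 bp in 3 introns, with signals of 43.4 to 78.7, and mbk-2, a DYRK kinase of the oocyte-to-embryo transition, 3 in 2 introns. K05C4.5 had 5 in 4 introns of a gene only 5025 bp long. It lies in the dense run, and 3 of its 5 regions had no summit in replicate 2.

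**Figure D4:**
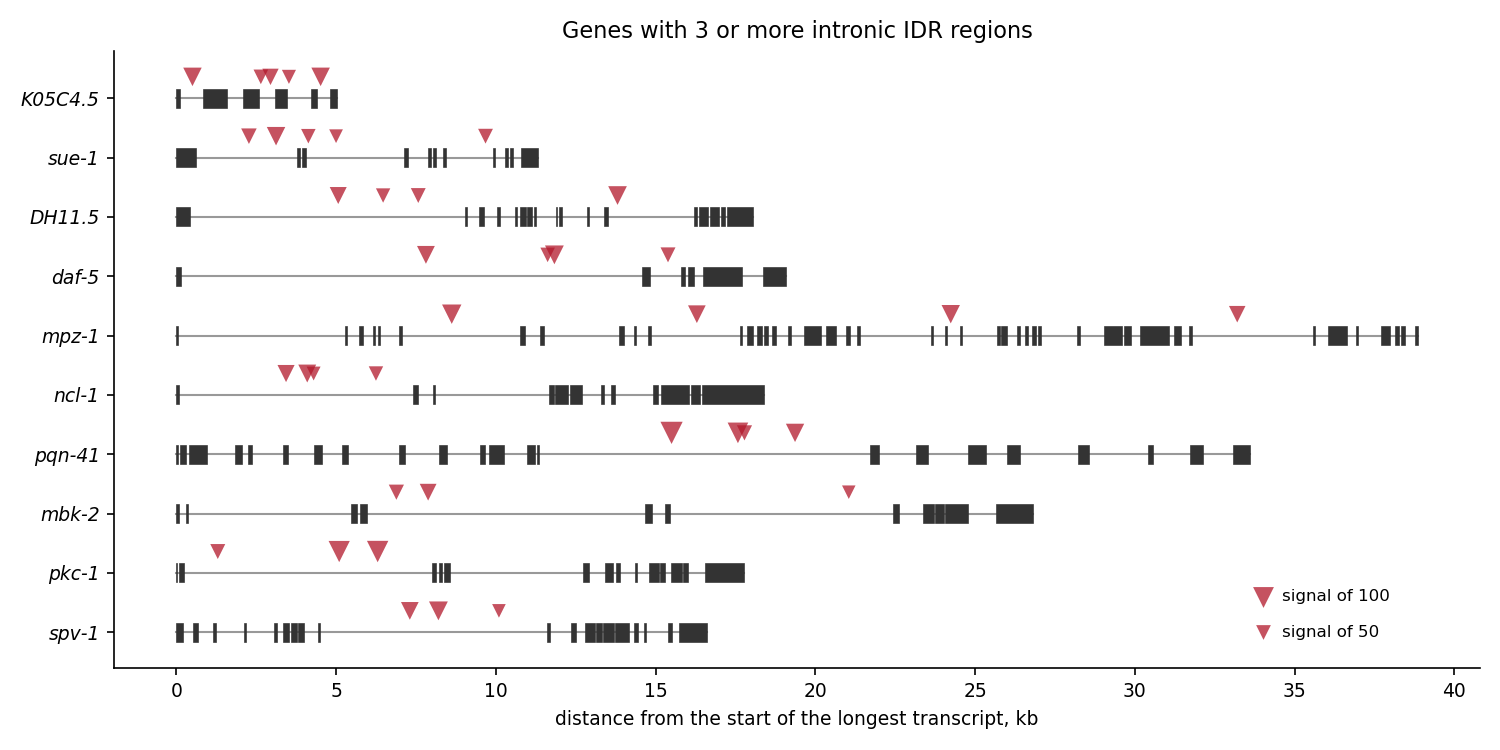
Genes with 3 or more intronic IDR regions, drawn along the longest transcript in kb from its start (black boxes are exons, grey lines introns), with each region's summit as a triangle whose area is its signal. Regions sit together in 1 long intron in pqn-41, ncl-1, pkc-1 and spv-1, and over 24585 bp in mpz-1.

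The longest introns with a region were those of kin-1, the catalytic subunit of protein kinase A (21230 bp, 2 regions, signals 80.0 and 58.7), kcc-2, a potassium-chloride cotransporter (21046 bp, 53.3), Y75B7AL.2 (20993 bp, 55.4), crh-1, the CREB transcription factor gene (18615 bp, 47.1), and hmr-1, the classical cadherin (18310 bp, 51.7). Their signals were below or near the median of 58.5, apart from the stronger one in kin-1.

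Hosts often had a promoter region too. Of 199 host genes 50 (25.1%, 19.6 to 31.6) had an IDR summit in their own promoter window, against 11.5% of the hosts of relaxed regions and 6.57% of all genes with intronic sequence. Among genes with no intronic IDR region the share was higher in larger genes, so size classes were compared. With under 2000 bp of intronic sequence it was 43.8% of hosts (7 of 16, 23.1 to 66.8) and 5.55% of genes with no intronic IDR region (5.15 to 5.99). From 2000 to 4999 bp it was 20.8% (11 of 53, 12.0 to 33.5) and 8.30% (7.12 to 9.66). In both classes the intervals were clear of each other with the dense run on chromosome I included. All 4 host genes in that run had a promoter region. K05C4.9 was among the 7 hosts of the first class, and K05C4.5 and K05C4.3 were among the 11 of the second. The shares were not recomputed without them, so how far they rest on the run was not tested. Among genes with 5000 to 9999 bp of intronic sequence the share was 28.6% (18 of 63, 18.9 to 40.7) of hosts and 11.9% (9.60 to 14.7) of genes with no intronic IDR region. Among genes with 10000 bp or more it was 18.8% (12 of 64, 11.1 to 30.0) and 13.7% (9.83 to 18.8), with overlapping intervals.

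Genes of the synapse and of transmitter reception were the densest of the 11 gene lists, which were made from gene symbols and in part overlap. They held 18 regions in 15 of 105 genes, or 40.6 per Mb (24.0 to 64.1) against 11.7 overall. With intron length held fixed this was 2.64 times the number given by length (1.57 to 4.18), and relaxed regions were at 1.53 times theirs. The interval takes regions as independent, but 3 of the 18 lay in 1 intron of pkc-1 and 2 in 1 intron of nrx-1. The lists were made with earlier results of these data known, so the ratio is a description. The strongest were those of pkc-1, unc-41 and ida-1, a dense-core vesicle phosphatase-like protein (89.2, with 65.6 in replicate 1 and 39.0 in replicate 2). Chosen after their values were seen, others were unc-13, which primes vesicles (61.9, intron 20 of 28), unc-64, the syntaxin (49.0), snt-3, a synaptotagmin (58.7), nrx-1, the neurexin (47.2 and 45.8), ser-4, a serotonin receptor (81.6), gar-2, a muscarinic receptor (54.5), and gbb-2, a GABA-B receptor subunit (41.6). The signal median of the 18, 58.0, was near that of all intronic regions, 58.5.

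The list of kinase, G protein and small GTPase genes is partial: it leaves out hosts such as mnk-1 and dlk-1. Its genes held 24 regions in 16 of 174 genes, at 27.7 per Mb (17.7 to 41.2), with soc-2, pde-3 and pkc-1 the strongest. pkc-1 is on both lists. Intron length gave 16.7 of them, a ratio of 1.44 (0.921 to 2.14, relaxed 1.35). Ion channel genes held 12, at 15.4 per Mb and 1.10 times the number given by length. The strongest were avr-14, a glutamate-gated chloride channel (90.7), lgc-30, a ligand-gated channel (87.9), clh-2 (87.3) and nca-2, a sodium leak channel (80.6). The ratios of both lists had intervals that include 1.

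The 3 lists of transcription factor genes had ratios to the number given by length whose intervals include 1. No region lay in an intron of the 71 homeobox genes with intronic sequence, where length gives 1.76 (ratio 0 to 2.09). Nuclear hormone receptor genes held 2, in nhr-88 (71.7) and nhr-19 (50.7), in 240 genes, 1.01 times the number given by length (0.123 to 3.65). Other factors held 10 in 9 of 147 genes, at 24.2 per Mb (11.6 to 44.5) and 1.16 times the number given by length (0.556 to 2.13). Besides mef-2, daf-14 and ast-1 (79.9) they included lsy-22 (65.0) and, named after the values were seen, daf-16, the FOXO factor (62.8, intron 3 of 11), tra-1, the GLI-type sex determination factor (52.9), and the forkhead gene fkh-7 (42.5, intron 4 of 9). daf-16 and fkh-7 had no summit in replicate 1.

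The remaining lists held fewer regions than length gives, each with a ratio whose interval includes 1. Axon guidance, adhesion and matrix genes held 8 (ratio 0.802, 0.346 to 1.58). Among them were zig-8, the agrin gene agr-1 (62.0), mig-10, a lamellipodin of axon guidance (61.4), and the β-catenin gene hmp-2 (57.7, in the dense run). Muscle and cytoskeleton genes held 6 (0.811, 0.298 to 1.76), with unc-76, an axonal transport protein (84.5), and unc-33, a CRMP of axons (69.4). These genes and unc-119 were on this list and not on the axon guidance list. RNA-binding, splicing and chromatin genes held 3 (0.811, 0.167 to 2.37), 1 in mdt-26, a Mediator subunit (89.4), and 2 in larp-1, a La-related protein (71.8 and 48.3). Ribosomal and translation genes held 0 in 90 genes with 0.0582 Mb of intron. Genes with clone names alone held 60, at 8.57 per Mb (ratio 0.800, 0.611 to 1.03).

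The region in unc-119 needs a separate word, because the transgene carries unc119 as its marker. Its summit was at 10903338 on chromosome III, in the first of 4 introns, 697 bp from a start, with a signal of 77.0 and 35.5 in each replicate. The gene had 7 pooled summits inside it. Whether reads of the transgene contributed to this region was not tested.

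The DNA under the intronic regions was richer in GC than other intronic sequence. The median over windows of 100 bp on each side of the summit was 41.3% (quartiles 36.8 and 45.3), against 32.3% for relaxed regions, 33.3% for tiles of intronic sequence and 42.3% for the other autosomal IDR regions. Letters soft-masked as repeats in the RefSeq genome made up a median of 27.4% of a window, against 48.3% in relaxed regions and in tiles. In both measures the intronic IDR regions were near the IDR regions outside introns and apart from the rest of the intronic sequence.

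GA-repeat words were the most frequent of the 8 motifs searched, on both strands, in the intronic windows. GAGAGAG was in 58 of 256 (22.7%, 18.0 to 28.2), as in 20.04% of the other autosomal IDR windows, and in 4.76% (4.12 to 5.50) of relaxed windows and 2.14% of tiles. The difference from relaxed windows was seen in each class of GC content. It was 8.51% against 1.12% below 35% GC, 15.9% against 5.48% from 35 to 40%, 25.3% against 12.7% from 40 to 45%, and 35.8% against 18.0% from 45% up, with intervals clear of each other in all 4 classes. It was also seen within classes of intron length: 8.20% against 1.78% in introns under 2000 bp, 25.6% against 9.50% from 2000 to 4999 bp, and 28.4% against 10.5% in longer ones. The 58 had a median signal of 58.2, and the others 58.6. In the 82 intronic windows on X the share was 11.0% (5.88 to 19.6).

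The share of windows with the forkhead consensus varied with GC content. It was in 32 of the 256 windows (12.5%, 8.995 to 17.1), and in 16.6% of relaxed windows, 16.95% of tiles and 14.9% of the other autosomal IDR windows. Within GC classes it was in 19.1% of intronic IDR windows below 35% GC (10.4 to 32.5; relaxed 19.3%, tiles 20.6%), 9.52% from 35 to 40% (4.44 to 19.3; relaxed 13.5%, tiles 14.0%), 19.0% from 40 to 45% (11.9 to 29.0; relaxed 14.0%, tiles 9.67%) and 2.99% from 45% up (0.822 to 10.2; relaxed 7.54%, tiles 6.30%). From 40 to 45% the interval was clear of that of tiles (9.17 to 10.2) and overlapped that of relaxed windows (11.1 to 17.5), and in the other classes it overlapped both. The strict word GTAAACA, 1 of the words of that consensus, was in 11 windows (4.30%, 2.42 to 7.53), against 2.40% (1.95 to 2.94) of relaxed windows, 1.84% of tiles and 3.41% of the other autosomal IDR windows. From 35 to 40% GC it was in 5 of 63 windows (7.94%, 3.44 to 17.3), against 3.26% of relaxed windows (2.16 to 4.89) and 1.90% of tiles (1.73 to 2.08). From 40 to 45% it was in 5.06% (1.99 to 12.3) against 1.75% of relaxed windows (0.892 to 3.42). Below 35% it was in 2.13% against 2.28%, and from 45% up in 1.49% against 2.30%. For this word the intervals of intronic IDR and relaxed windows overlapped overall and in each class. Against tiles the interval was clear overall (tiles 1.76 to 1.92) and from 35 to 40% GC, and overlapped in the other classes. The 11 windows with GTAAACA included, besides Y41E3.7 and pac-1 above, those of sue-1, kcc-2, daf-5 and fkh-7 and 2 in ncl-1. Their median signal was 67.6 against 58.3 for the rest. For the 32 windows with the consensus it was 59.1 against 58.1. Other motifs searched also differed: it was 67.6 against 58.4 with TGATAA (15 windows) and 55.0 against 58.7 with TGACTCA (5 windows). On X, 23.2% (15.4 to 33.4) of intronic windows held the consensus and 8.54% (4.20 to 16.6) the strict word.

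Words rich in A and T were rarer than in the surrounding introns. TGATAA, the core bound by GATA factors, was in 5.86% of windows (3.58 to 9.44), against 14.0% of relaxed windows and 16.1% of tiles, and TAATTA, a homeodomain word, in 1.95% (0.837 to 4.49), against 10.1% and 9.83%. In each group windows under 35% GC held more of both than windows over 45%, and GC content differed between the groups as given above. Within each class of GC content both words were still rarer in intronic IDR windows than in relaxed windows and tiles. Below 35% GC the shares were 12.77% against 16.04% of relaxed windows for TGATAA and 4.26% against 12.69% for TAATTA. From 45% up they were 0% against 8.85% and 1.49% against 3.28%. Against relaxed windows the intervals were clear of each other only for TGATAA from 45% up (0 to 5.42 against 6.16 to 12.57). How much of the difference goes with GC content was not tested. CACGTG, the palindrome bound by basic helix-loop-helix proteins, was in 9 windows (3.52%), TGACTCA, the AP-1 word, in 5 and CCCGCCC, a word of SP and KLF proteins, in 3, each with an interval that includes the share in relaxed windows. None of the 8 was found in 146 windows (median signal 57.2), which says only that those letters are not in these windows.

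**Figure D5:**
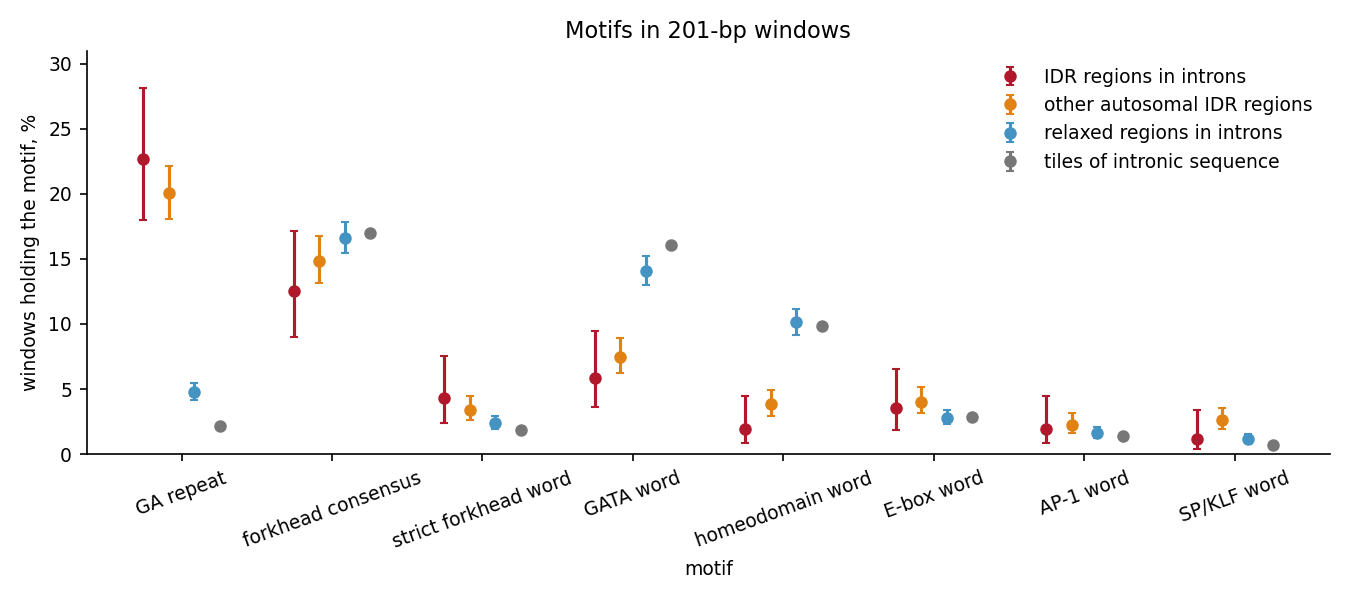
Share of windows (100 bp on each side of the summit) that hold each of 8 motifs on either strand, with 95% Wilson intervals, in intronic IDR regions, other autosomal IDR regions, intronic relaxed regions and tiles of intronic sequence. The GA repeat was in 22.7% of intronic IDR windows and 4.76% of relaxed ones, and the forkhead consensus in 12.5% and 16.6%.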

How the data were processed

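ChIP-seq regions of 2 biological replicates of 1 group were used. Per the file descriptions, the authors called relaxed regions, background included, in each replicate and in the pooled replicates against a control library, and kept an IDR-thresholded list over both. All are on ce11. The aligner, peak caller and cut-offs: not given in the sources used here. Each deposited signal is the authors' enrichment value, whose scale and depth are not stated. The deposited −log10 q-value served only to see that it was at its ceiling in 76.1% of IDR regions. The deposited summit offset, which is neither a count nor a level, gave the position. The same lists on ce10 were not used. The files of the replicates were compared and had 0 identical regions.

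From these, locations were assigned with Ensembl release 115 and sequences read from RefSeq's WBcel235 genome, in Python 3.11.15 with NumPy 2.4.6, SciPy 1.17.1 and Matplotlib 3.10.9. Each base followed the order promoter, noncoding, exon, intron, between genes. Intronic bases and introns belong to the longest transcript with an intron there. A count given by length is the sum over 6 length classes of the class density times the bases. Windows reach 100 bp to each side of a summit, summits were matched within 100 bp, and 108665 tiles of the same length cover the intronic bases. Shares have 95% Wilson intervals and densities exact Poisson intervals, for counting error only. Neighbouring regions are not independent. With 1 group no test was made. The steps were tested on simulated positions and planted words.

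The members, gene lists and motifs were chosen with earlier results of these data known. The genes named are the hosts of the 25 strongest regions, those with 3 or more, up to 4 regions per list, the 5 largest and 5 smallest replicate ratios, the 5 longest introns and the regions at the rule's limits; exceptions are marked. No chemoreceptor gene is named.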

Additional observations from a re-analysis of the deposited data

How the results depend on the processing

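The 12 results were recomputed under other settings of the rule, giving 132 values, of which 108 stayed within their interval (shares), within 1.5 times (counts) or within a spread (medians). That spread was the SD of the values from each replicate alone, and for the log2 ratio between replicates, where these do not exist, the SD over regions, 0.72. The ratio ranged from 0.49 to 0.57, so that spread was too wide to set any of its values apart. The number of regions was 125 in the 1126 strongest regions of the list, with 106 host genes, a median signal of 77.3, 93.6% with a summit in both replicates and a median start distance of 2037 bp. The intronic share was 16.8% with a promoter window of 500 bp upstream and 100 bp downstream, 11.0% with 2000 and 500 bp, and 16.8% with noncoding genes widened by 0 bp; the start distance was then 1755, 2470 and 1885 bp, and also 1885 bp with 500 bp around noncoding genes. First introns were 52.3% by the lowest intron number. GAGAGAG was in 12.1% of windows of 50 bp on each side and 32.4% of those of 150 bp, and the forkhead consensus in 7.81% and 21.9%. The share seen in both replicates was 62.5% with a match within 50 bp and 97.3% within 200 bp. With 1 replicate left out, and the 2253 strongest regions of the other used, the number was 272 to 281, the share 15.9 to 16.2%, the intron length 3818 to 4297 bp, first introns 32.7 to 34.6%, the signal 25.9 to 34.2, host genes 210 to 218, the start distance 1880 to 1900 bp, GC 40.8 to 42.3%, GAGAGAG 21.7 to 23.8% and the consensus 12.1 to 14.6%. Without the dense run, added after the data were seen, the number was 246. No paired analysis was possible because there is 1 group. The cause of these shifts was not tested. Depth in reads is unknown, so no limit of detection can be given.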
